A study of Homo sapiens with 16 samples.

Results

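The 38 genes described here belong to the 4 human HOX clusters, HOXA on chromosome 7, HOXB on chromosome 17, HOXC on chromosome 12 and HOXD on chromosome 2. They were chosen by name and not by any measured value, and they are 38 of the 39 HOX genes in the RefSeq table of GRCh38.p14 and 38 of its 20037 protein-coding genes; the other HOX gene is not analysed here. HOXA holds 10 of them, HOXB 10, HOXC 9 and HOXD 9. All measurements come from LNCaP, an established line of prostate carcinoma cells that depends on the androgen receptor. The cells carried either a control guide, called sgC, or a guide against PRKCI, which encodes an atypical protein kinase C (iota), called sgPRKCI. Each was kept for 72 h in DMSO, the solvent, or in 10 µM enzalutamide, which blocks the androgen receptor. CUT&RUN, in which an antibody directs a nuclease to its target in intact cells, was run in these 4 conditions for EZH2, for the histone mark H3K27me3 and for the histone mark H3K4me3. There was 1 library per antibody and condition, so the 12 peak lists hold no replicate spread, no value below has a test, and a difference between conditions is a difference between libraries. The labels used here do not say whether either line is a single clone, and peak lists do not show whether the guide removed PRKCI.

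HOX genes encode homeodomain transcription factors that set the identity of body segments along the head-to-tail axis, and their order along each cluster follows the order in which they are used. Polycomb repressive complex 2, whose catalytic subunit is EZH2, writes H3K27me3 over silent HOX genes, while H3K4me3 marks the starts of genes that are open for transcription. Differentiated cells keep some HOX genes in one state and some in the other, which makes the clusters a standard place to read both systems side by side. In the prostate the lineage gene of the family is HOXB13, a partner of the androgen receptor.

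A gene was counted as marked where a peak lay within 1 kb of either annotated end. The lists held 11452, 6182, 15373 and 24551 EZH2 peaks in sgC DMSO, sgPRKCI DMSO, sgC enzalutamide and sgPRKCI enzalutamide, and values below keep this order of conditions. H3K4me3 lists held 17424 to 19294 peaks and H3K27me3 lists 78855 to 100414. Each peak's values give back the library's mean coverage, which was 1.13 to 1.68 fragments for the EZH2 libraries and 0.842 to 1.56 in the H3K4me3 libraries. One library stood apart: the EZH2 library of sgPRKCI enzalutamide had peaks at 72.5% of all H3K4me3 peaks, where the other EZH2 libraries had 6.34% to 17.7%, so its values at H3K4me3 sites are given beside values without such sites. H3K4me3 lay at 8 or 9 of 9 luminal prostate markers, HOXB13 included, in each condition. It lay at 0 of 4 leukocyte, 0 of 3 endothelial and 0 of 3 basal markers and, of 4 fibroblast markers, at COL1A1.

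Promoter sequences are shown for members that the values below turn on, since HOX promoters differ in their content of CG, the dinucleotide that CpG islands are made of. Each is the 250 bases before a RefSeq start in GRCh38.p14, written 5′ to 3′ on the gene's strand, with every CG in capitals. The members' 27 windows, which cover 20 of the 38 genes, held a median of 19 CG, and the 35116 windows of all genes held a median of 11. The first 2 promoters lie in HOXD under EZH2 and H3K27me3, the third is the start that HOXC4 and HOXC5 share under H3K4me3, the next 2 lie in HOXA, and the last had none of the 3 marks and was chosen after its values were seen.
HOXD8, 28 CG, chr2:176129455-176129704, plus strand: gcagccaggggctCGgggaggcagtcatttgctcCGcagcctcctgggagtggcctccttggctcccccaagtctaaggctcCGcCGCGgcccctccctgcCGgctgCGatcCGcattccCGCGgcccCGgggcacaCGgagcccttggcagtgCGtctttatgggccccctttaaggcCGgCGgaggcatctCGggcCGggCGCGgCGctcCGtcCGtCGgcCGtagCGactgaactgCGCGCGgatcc
HOXD10, 23 CG, chr2:176116528-176116777, plus strand: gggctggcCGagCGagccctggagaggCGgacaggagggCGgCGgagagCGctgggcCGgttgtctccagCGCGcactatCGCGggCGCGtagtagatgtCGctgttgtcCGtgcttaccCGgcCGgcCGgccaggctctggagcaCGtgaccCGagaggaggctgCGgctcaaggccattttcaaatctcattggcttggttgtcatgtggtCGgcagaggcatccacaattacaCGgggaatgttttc
HOXC4 and HOXC5, 14 CG, chr12:54016638-54016887, plus strand: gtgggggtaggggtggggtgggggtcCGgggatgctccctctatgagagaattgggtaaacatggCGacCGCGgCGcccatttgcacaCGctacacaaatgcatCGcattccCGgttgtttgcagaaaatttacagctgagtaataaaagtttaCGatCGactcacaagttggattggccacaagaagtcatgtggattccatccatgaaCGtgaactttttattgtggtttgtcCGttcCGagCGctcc
HOXA13, 40 CG, chr7:27200092-27200341, minus strand: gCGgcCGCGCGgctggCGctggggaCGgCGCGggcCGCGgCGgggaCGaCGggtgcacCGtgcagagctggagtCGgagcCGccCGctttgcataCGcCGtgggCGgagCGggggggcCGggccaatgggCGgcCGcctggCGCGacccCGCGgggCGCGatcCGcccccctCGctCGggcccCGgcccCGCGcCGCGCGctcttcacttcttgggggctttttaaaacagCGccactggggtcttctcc
HOXA4, 26 CG, chr7:27130758-27131007, minus strand: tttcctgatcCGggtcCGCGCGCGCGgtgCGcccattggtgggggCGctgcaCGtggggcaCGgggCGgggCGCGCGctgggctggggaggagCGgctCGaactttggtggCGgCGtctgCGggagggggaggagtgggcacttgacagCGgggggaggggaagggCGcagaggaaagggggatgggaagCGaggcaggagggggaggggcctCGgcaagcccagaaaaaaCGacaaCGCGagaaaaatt
HOXB1, 7 CG, chr17:48531012-48531261, minus strand: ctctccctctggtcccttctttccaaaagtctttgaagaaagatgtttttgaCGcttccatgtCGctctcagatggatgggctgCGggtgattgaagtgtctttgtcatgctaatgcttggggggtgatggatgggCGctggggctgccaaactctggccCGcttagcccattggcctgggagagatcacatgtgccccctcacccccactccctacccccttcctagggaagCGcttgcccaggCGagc
The HOXA13 window was the richest of the members, and 2.16% of all windows held at least as many CG. The HOXD8 count was reached by 15.9% of all windows, that of HOXD10 by 25.8%, that of HOXA4 by 19.6%, that of HOXC4 by 44.8% and that of HOXB1 by 58.9%. CG content did not sort the marked from the unmarked in this small set, since HOXA6, with 27 CG, had no peak of any mark within 1 kb. The motif TATAAA, read on both strands, lay in 5 of the 27 windows and in 10.7% of all windows, and TAATTA, a core that homeodomains can bind, lay in 2, those of HOXD3 and HOXD11, and in 4.35% of all windows. A match is a match of letters and not a bound site.

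In every condition the share of HOX genes with H3K27me3 stood above that of all genes by more than its counting interval. H3K27me3 lay at 21, 23, 22 and 21 of the 38 genes, shares of 55.3% (95% exact binomial interval 38.3 to 71.4), 60.5% (43.4 to 76.0), 57.9% (40.8 to 73.7) and 55.3% (38.3 to 71.4), beside 16.2%, 17.6%, 17.9% and 16% of all protein-coding genes. EZH2 lay at 11, 9, 12 and 24 of 38, beside 18.3%, 7.67%, 10.3% and 62.6% of all genes. H3K4me3 lay at 15, 18, 19 and 20 of 38, with intervals of 24.0 to 56.6, 31.0 to 64.2, 33.4 to 66.6 and 35.8 to 69.0%, beside 59.3%, 61.1%, 60.9% and 61.4% of all genes, so that 3 of the 4 intervals hold the share of all genes. The intervals cover counting error only, and members that share a peak are not independent. Of the 38 members, 19 had H3K27me3 in all 4 conditions, beside 12.9% of all genes, and 15 had H3K4me3 in all 4, beside 58.4%. EZH2 was in all 4 at 9, beside 5.27% of all genes, namely HOXB8, HOXB9, HOXD3, HOXD4, HOXD8, HOXD9, HOXD10, HOXD11 and HOXD13. A further 12 had EZH2 in none, beside 35.4% of all genes: HOXA2, HOXA3, HOXA5, HOXA6, HOXA9, HOXA10, HOXB1, HOXB2, HOXB3, HOXC10, HOXC11 and HOXD12. This counts gene ends only, and EZH2 peaks lay inside HOXB3 in every condition but sgPRKCI DMSO. Inside HOXA3 and HOXA10, EZH2 peaks lay in sgPRKCI enzalutamide alone. HOXA5, HOXA6 and HOXB1 had no peak of any mark in any condition.

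**Figure D1:**
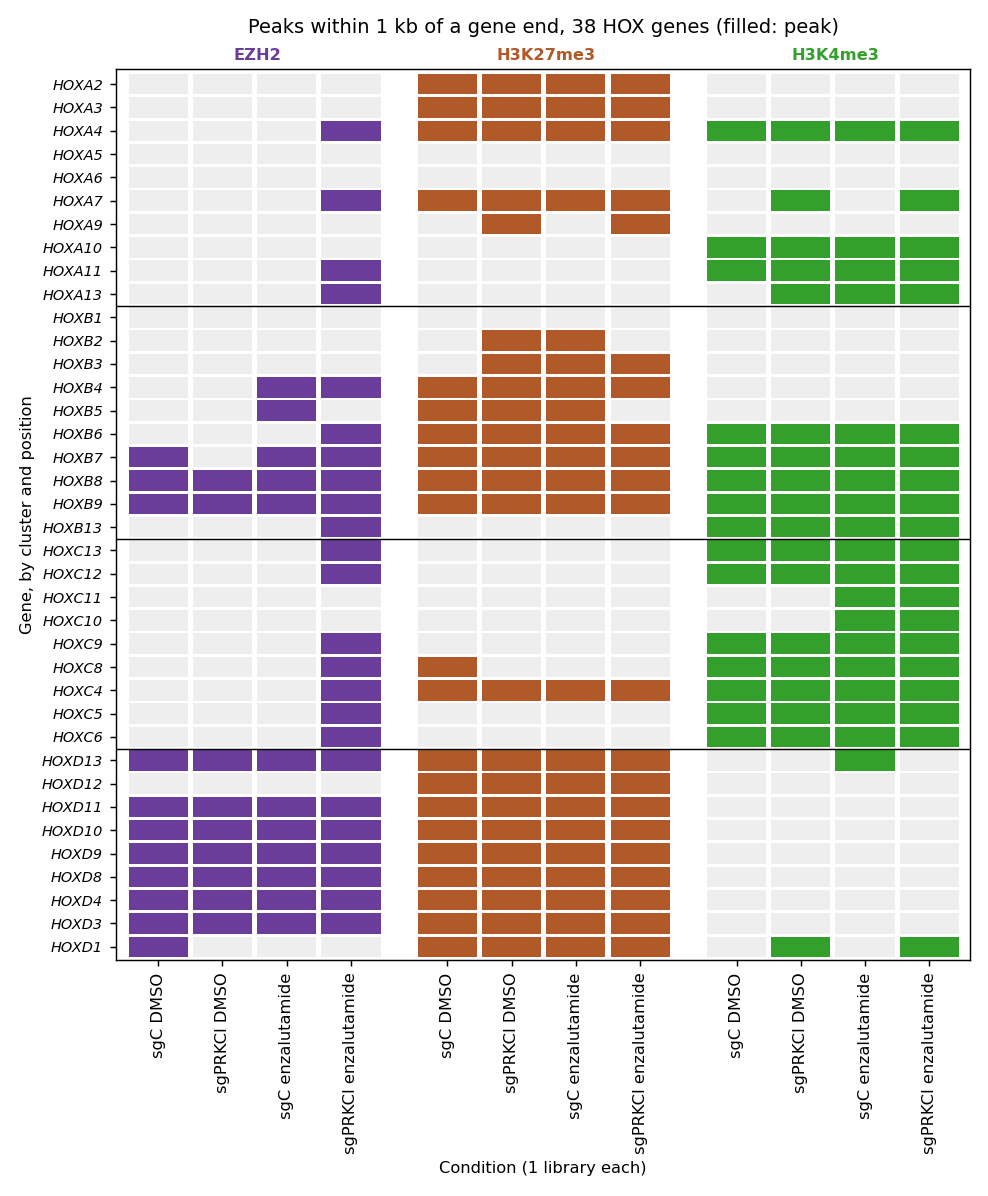
Presence of a peak within 1 kb of either end of each of 38 HOX genes (rows, by cluster and position) in 12 libraries (columns, 4 conditions for each antibody); a filled cell is a peak and a grey cell none. HOXD is filled for EZH2 and H3K27me3, HOXC for H3K4me3, and HOXB6 to HOXB9 for both histone marks, while EZH2 in HOXA and HOXC appears in the sgPRKCI enzalutamide column.

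Measured over length, H3K27me3 covered 81.5%, 84.4%, 92.7% and 82.8% of HOXD, against 23.8%, 27.4%, 29.9% and 23.4% of HOXB. It covered 5.01%, 12.5%, 22.4% and 20.7% of HOXA and 4.53%, 6.84%, 5.85% and 6.37% of HOXC, where the whole genome stood at 6.21%, 7.52%, 9.38% and 8.08%. HOXD was thus covered 9.88 to 13.1 times as much as the genome, and HOXC less than the genome in every condition. Between HOXC and HOXD, H3K4me3 ran the other way, with 9.72%, 10.6%, 15.7% and 14.9% of HOXC and 1.19%, 1.69%, 2.11% and 2.51% of HOXD. The whole genome stood at 0.913%, 0.991%, 1.03% and 0.990%, so both clusters were covered more than the genome. EZH2 covered 26.0%, 12.2%, 44.4% and 25.3% of HOXD and 6.41%, 4.47%, 7.78% and 7.999% of HOXB. It covered 0% of HOXA and of HOXC in the first 3 conditions and 2.50% and 6.05% in sgPRKCI enzalutamide.

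**Figure D2:**
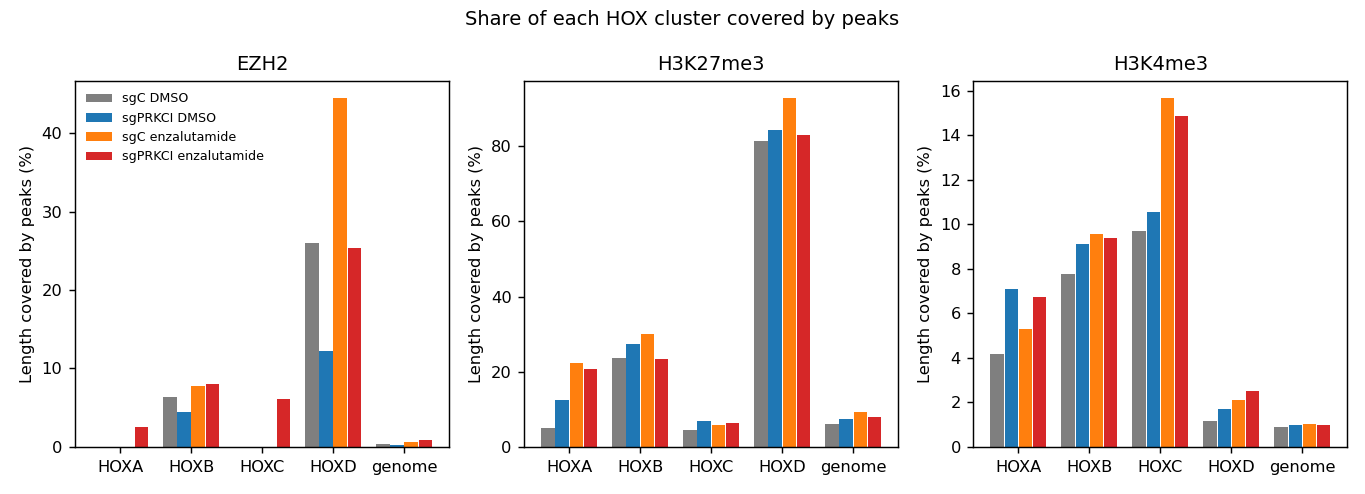
Percent of the length of each HOX cluster, and of chromosomes 1 to 22, X and Y together (genome), that lies under peaks, by antibody (panels) and condition (bar colour, 1 library each); the panels have different scales. HOXD stands highest for EZH2 and H3K27me3 and HOXC for H3K4me3, and the sgC enzalutamide bar is the tallest for both Polycomb readouts in HOXD.

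HOXD, whose genes pattern limbs, the trunk and the urogenital tract, was the Polycomb cluster of these cells. All 9 of its genes had H3K27me3 in all 4 conditions. A single H3K27me3 peak ran over its middle, 59.8, 66.3, 73.6 and 65.0 kb long, and it took in HOXD8, HOXD9, HOXD10 and HOXD4 whole in each condition. EZH2 lay inside and beside that domain as separate peaks, with medians of 583, 547, 1039 and 706 bp in width. There were 25, 15, 19 and 28 of them across the cluster. Of these, 25, 14, 19 and 27 lay on H3K27me3, with or without H3K4me3. The EZH2 peak at HOXD8, a homeobox gene of the middle of the cluster, was the highest of the cluster in every library.

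The HOXD8 peak was read from 67, 58, 129 and 49 fragments at its summit. Its height, which is the summit pileup divided by the library's mean coverage, was 49.6, 51.5, 76.8 and 32.0. The 2 DMSO libraries lay close together, the sgC enzalutamide library above them and the sgPRKCI enzalutamide library below. For HOXD10, which acts in the hindlimb and its motor neurons, the highest peaks within 1 kb had heights of 23.7, 14.2, 44.04 and 20.9, but in both sgC libraries that peak had its summit in HOXD9, and summits in HOXD10 or within 1 kb of it had 17.0, 17.8, 27.4 and 20.9. HOXD11, a limb and kidney gene, had heights of 22.9, 30.2, 30.9 and 25.5, a narrower range. HOXD9 had heights of 49.6, 17.8, 44.04 and 19.6 by the 1 kb rule, but the first is that of the wide HOXD8 peak, 7389 bp long, which reached within 1 kb of it, and summits in or beside HOXD9 had 23.7, 16.0, 44.04 and 19.6. HOXD3 and HOXD4 overlap and shared one peak of 9.61, 11.55, 22.02 and 17.0, higher in both enzalutamide libraries than in both DMSO libraries.

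HOXD13, the last gene of the cluster on its limb and urogenital side, shows a limit of counting at annotated ends. Its RefSeq span begins at chr2:176087487, while the promoter window of RefSeq, chr2:176092471-176092720, ends at a start inside the gene. At that inner start an H3K4me3 peak lay in all 4 conditions, with heights of 30.9, 33.7, 32.1 and 44.6, and an EZH2 peak overlapped it with heights of 27.4, 16.9, 18.4 and 24.2. A second pair of peaks past the other end had H3K4me3 heights of 21.4, 30.4, 16.0 and 37.4 and EZH2 heights of 20.7, 14.2, 14.9 and 13.1. HOXD13 was therefore the place in HOXD where H3K4me3 and EZH2 were found together in all 4 conditions, although the 1 kb rule gave it H3K4me3 in sgC enzalutamide alone. HOXD1, at the opposite end, had H3K4me3 in both sgPRKCI libraries, with heights of 11.5035 and 12.9, and in neither sgC library.

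**Figure D3:**
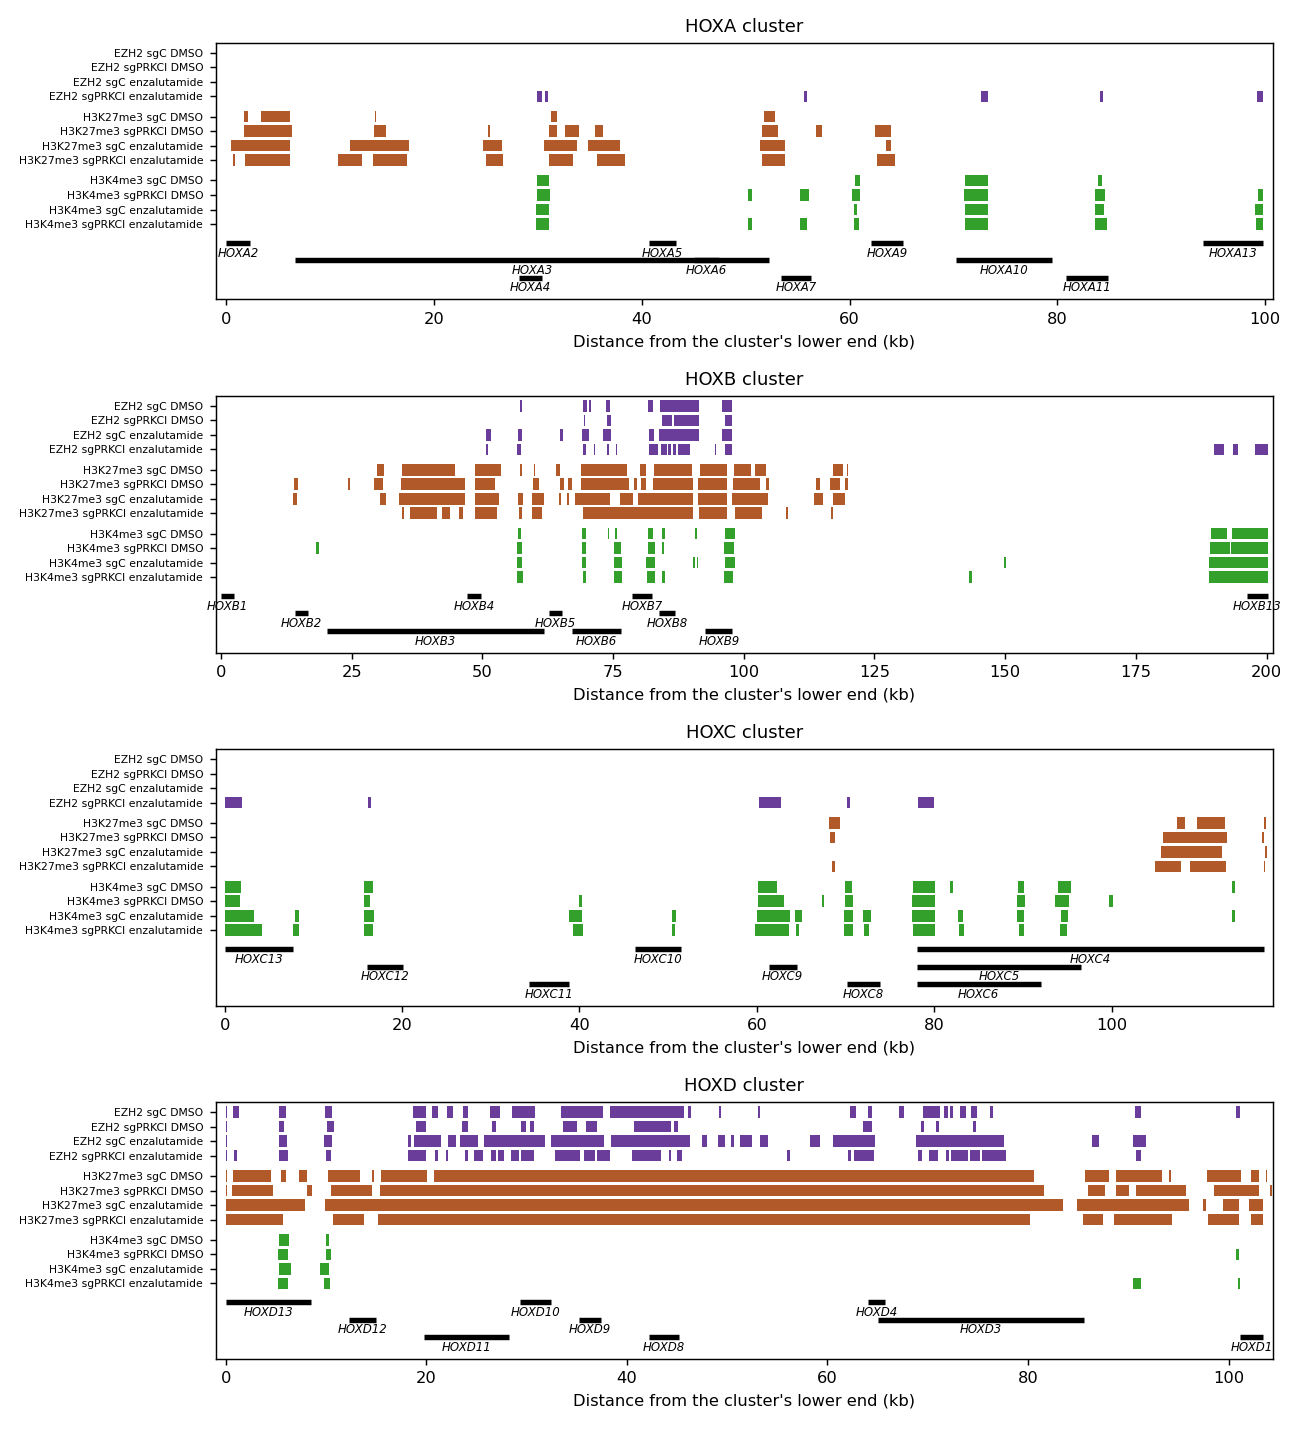
Peaks along each HOX cluster, with the distance from its lower end in kb on the x axis, 12 libraries as rows (EZH2 purple, H3K27me3 brown, H3K4me3 green) and the 38 genes as black bars below. In HOXD the EZH2 peaks sit inside and beside one long H3K27me3 domain, and in HOXB the widest lies at HOXB8 in the first 3 conditions. In HOXC and HOXA they appear in the sgPRKCI enzalutamide row over H3K4me3 peaks.

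HOXB was split along its length. HOXB6, HOXB7, HOXB8 and HOXB9, which pattern the trunk, carried both H3K27me3 and H3K4me3 in all 4 conditions. HOXB4, a gene of blood stem cells and the hindbrain, had H3K27me3 in all 4 and H3K4me3 in none, and HOXB1, a hindbrain gene, had neither. HOXB13, which lies apart from the rest at the far end, had H3K4me3 in all 4 and H3K27me3 in none. EZH2 heights at HOXB8 were 37.7, 39.1, 56.5 and 36.6 from 51, 44, 95 and 56 fragments. The sgC enzalutamide library was again the highest of the 4. The HOXB8 peak was 7433, 4642 and 7717 bp wide in the first 3 libraries, with a second peak of 1906 bp beside it in sgPRKCI DMSO. In the fourth library it was broken into shorter peaks, and the highest peak near HOXB8 was the one it shared with HOXB7. Summits in HOXB8 or within 1 kb of it had heights of 37.7, 39.1, 56.5 and 26.1. By the same rule HOXB6 had EZH2 heights of 37.7, 31.1, 34.5 and 32.7. HOXB9 had EZH2 heights of 33.3, 27.5, 36.3 and 39.9, and HOXB7 had 22.9, no peak, 22.02 and 36.6.

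HOXB13 had the strongest promoter mark of the cluster. Its H3K4me3 heights were 129.5, 122.4, 182.8 and 194.8, from 109, 149, 285 and 271 fragments, so that both enzalutamide libraries stood above both DMSO libraries. The peak was 7852, 8417, 12723 and 12646 bp wide, since on enzalutamide it ran together with a neighbouring peak on the far side of the gene that was separate in DMSO. EZH2 was called at HOXB13 in sgPRKCI enzalutamide alone, with a height of 92.1 from 141 fragments and with no H3K27me3. In that library EZH2 lay at 96.2% of all genes with H3K4me3 and no H3K27me3. It lay there at 7 of the 9 luminal markers, HOXB13 included, so the call is not particular to HOXB13. No RefSeq promoter of HOXB13 is shown.

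HOXC was the open cluster. H3K4me3 lay at 7, 7, 9 and 9 of its 9 genes, and H3K27me3 at 2, 1, 1 and 1, the constant one being HOXC4 at its far end. HOXC13, which acts in hair and nail, had the highest H3K4me3 of the members, with heights of 152.1, 162.7, 232.8 and 256.6 from 128, 198, 363 and 357 fragments. HOXC4, HOXC5 and HOXC6 share an annotated start and so one peak, printed above, with heights of 144.9, 127.4, 177.6 and 166.7. HOXC9, a trunk gene, had heights of 71.3, 73.1, 116.7 and 129.4. In these 3 places both enzalutamide libraries lay above both DMSO libraries. HOXC8 had 46.3, 37.8, 38.5 and 48.9, with no such order, and HOXC12 had 29.7, 23.8, 36.6 and 27.3. HOXC10 and HOXC11 had H3K4me3 on enzalutamide only, with heights of 14.1 and 15.1 at HOXC10 and 28.9 and 26.6 at HOXC11. The HOXC11 peak lay past the gene's far end, and in sgPRKCI DMSO a peak lay within 5 kb of that gene.

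HOXA was mixed: H3K4me3 covered 4.18%, 7.09%, 5.28% and 6.74% of it, above HOXD and below HOXB and HOXC in each condition. Its head-side genes HOXA2 and HOXA3 had H3K27me3 in all 4 conditions and no H3K4me3 within 1 kb of their ends. The span of HOXA3 takes in HOXA4 and its H3K4me3 peak. HOXA4 had both marks in all 4 conditions, although its H3K27me3 lay beside the gene and covered none of its length. HOXA10 and HOXA11, genes of the uterus and limb, had H3K4me3 in all 4 and no H3K27me3. HOXA4 had H3K4me3 heights of 45.1, 38.6, 34.6 and 31.6, lower in both enzalutamide libraries, and HOXA10 had 38.01, 32.9, 32.7 and 33.8. HOXA13, a gene of the urogenital tract and digits, had no H3K4me3 peak in sgC DMSO and heights of 17.3, 14.1 and 33.1 in the others, on the CG-rich promoter printed above. H3K27me3 coverage of the cluster was lowest in sgC DMSO, at 5.01%, against 12.5% to 22.4% in the others. It covered 16.1%, 25.9%, 80.8% and 33.4% of HOXA2 and 2.79%, 10.8%, 32.1% and 28.1% of HOXA3.

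**Figure D4:**
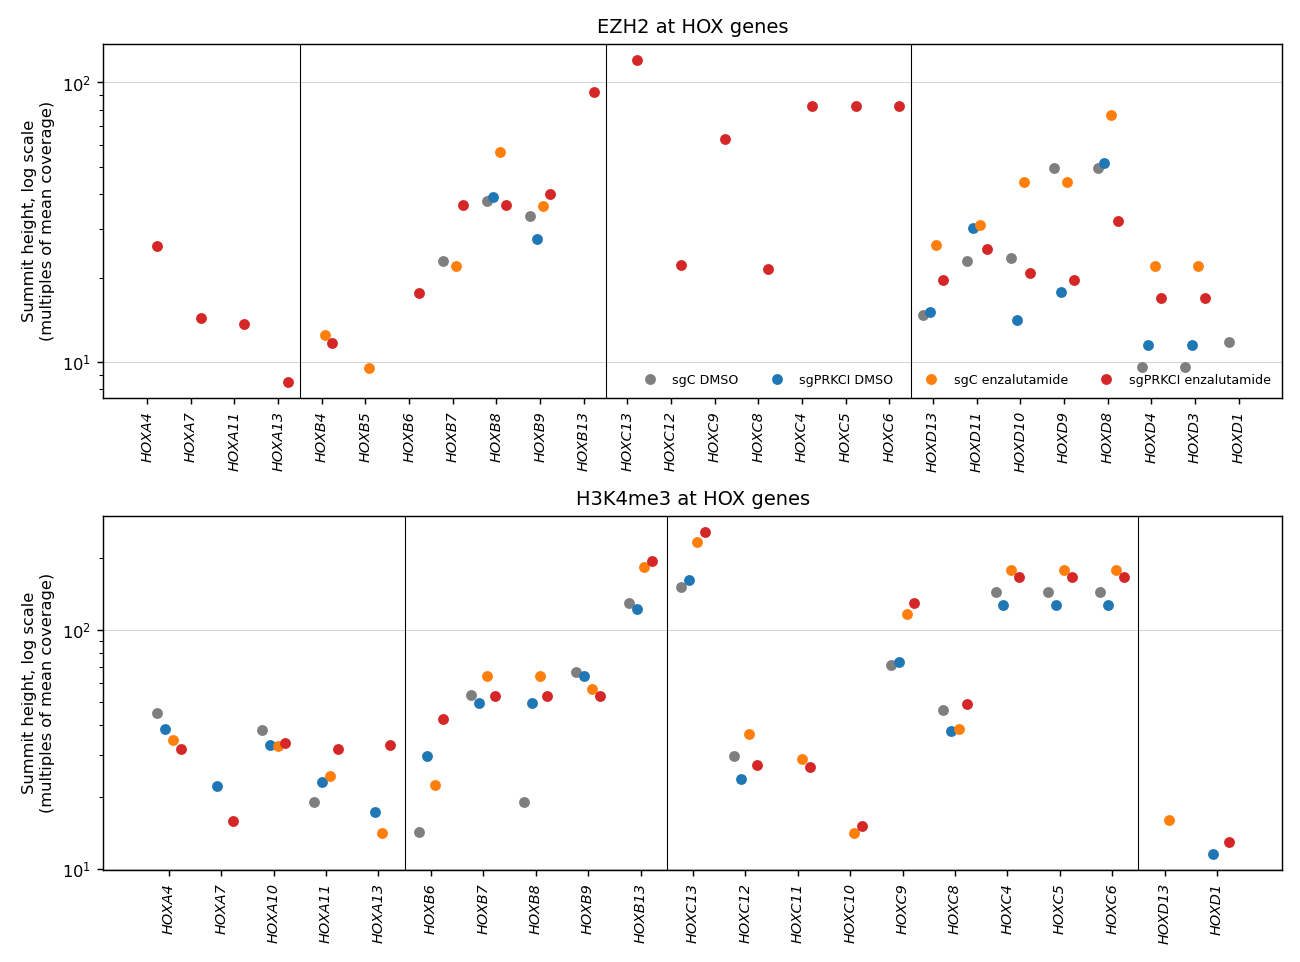
Summit heights of EZH2 (top) and H3K4me3 (bottom) peaks within 1 kb of each HOX gene, in multiples of the library's mean coverage on a log axis, 1 point per library with a peak (colours as in the key); HOXC4, HOXC5 and HOXC6 share one peak. At HOXD8 and HOXB8 the sgC enzalutamide point is the highest, and at HOXC13, HOXC9 and HOXB13 both enzalutamide points stand above both DMSO points for H3K4me3.

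Enzalutamide against DMSO in sgC cells addresses what blocking the androgen receptor does in cells with the control guide. The EZH2 peak at HOXD8 was higher on the drug by more than counting error, and covered length in HOXD was 26.9 kb in DMSO and 45.9 kb on enzalutamide. The whole genome stood at 0.332% and 0.565%, so HOXD was covered 78.2 and 78.6 times as much as the genome, nearly the same. Among the 10 members with EZH2 in both libraries, 5 had a height at least 1.5-fold higher, beside 8.7% of all genes with EZH2 in both, and 0 were 1.5-fold lower, beside 8.58%. These 5 were HOXD13, HOXD10, HOXD8, HOXD4 and HOXD3, of which the last 2 share a peak. Their ratios, with exact 95% intervals for counting error, were 1.77 (1.02 to 3.17), 1.86 (1.21 to 2.91), 1.55 (1.14 to 2.11) and, for the shared peak, 2.29 (1.19 to 4.69). Among genes without H3K4me3 in any condition, 4 of 6 members were higher, beside 15.3% of such genes, and 0 lower, beside 2.06%. HOXB8 stood at 1.499 (1.06 to 2.15), just short of the limit. The HOXD13 value is that of a peak before the gene's RefSeq span and the HOXD10 value that of a peak with its summit in HOXD9. With summits required in the gene or within 1 kb of it, an alternative chosen after seeing the data, 4 of 12 members were higher, HOXD10, HOXD9, HOXD8 and HOXD4, beside 7.58% of genes, and 0 lower, beside 9.42%. HOXD10 was then at 1.61 (0.96 to 2.78), HOXD9 at 1.86 (1.21 to 2.91) and HOXD13 in the opposite direction, at 0.67 (0.40 to 1.12). Mean coverage was 1.68 in this library and 1.35 in its reference, which the heights divide out.

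Gains and losses of whole peaks were few in the same comparison. A gain required a peak within 1 kb in one library and, in the other, none closer than 5 kb to the gene's ends. EZH2 was gained at HOXB4, beside 1.49% of all genes, and lost at HOXD1, beside 9.48%. H3K27me3 was gained at HOXB2, a hindbrain gene (1.37% of genes), and lost at HOXC8 (0.454%). Both peaks were weak. The HOXB2 peak had a −log10 q of 1.23, where the lowest of its list was 1.02. The HOXC8 peak in sgC DMSO had 1.80, where the lowest was 1.00. HOXB2 had one other H3K27me3 peak, in sgPRKCI DMSO, at 1.33, so each HOXB2 call below also rests on a weak peak. H3K4me3 was gained at HOXA13, HOXC10 and HOXC11 (1.54%) and lost at 0 (0.27%). Mean H3K4me3 coverage was 1.56 on enzalutamide and 0.842 in DMSO. HOXA13 and HOXC10 each had a height of 14.1, and the lowest member height in the DMSO library was 14.3, at HOXB6. Whether depth accounts for these gains was not tested. For H3K4me3 height, 4 of 15 members were at least 1.5-fold higher, beside 7.26% of genes, and 0 lower, beside 0.865%. They were HOXC13 at 1.53 (1.25 to 1.89), HOXC9 at 1.64 (1.22 to 2.23), HOXB6 at 1.57 (0.80 to 3.33) and HOXB8, whose ratio compares 2 different peaks because the HOXB7 peak reached it on enzalutamide. With summits required in the gene or within 1 kb, 2 of 17 were higher, HOXC13 and HOXC9, beside 7.46% of genes, and 0 lower, beside 1.21%. HOXB6 was then at 0.98 (0.59 to 1.64). The median H3K4me3 height of all genes was itself higher on the drug, by 0.28 on the log2 scale, and with ratios centred on that median 1 member stayed above 1.5-fold, HOXB8, and 1 was below, HOXA4.

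Both enzalutamide libraries can be set against both DMSO libraries for members with a peak in all 4. H3K4me3 heights were ordered that way at 8 of 15 members, beside 75.4% of genes, so the order is common over the genome. The 8 include HOXC4, HOXC5 and HOXC6, which share one peak, and HOXB8. HOXB8 was read from the HOXB7 peak in every library but sgC DMSO. With its summit required in the gene or within 1 kb, HOXB8 had no peak in sgC enzalutamide. Because members share peaks, 8 of 15 cannot show whether the order is less frequent among HOX genes. The reverse order was seen at HOXA4 and HOXB9, 2 of 15, beside 2.6% of genes. H3K4me3 peaks were wider in both enzalutamide libraries at 7 of 15 members, beside 31.4% of genes, and at least 1.5 times wider at 2, beside 0.644%. The 7 include HOXB7 and HOXB8, which were read from one peak in every library but sgC DMSO. The 2 were HOXC13, with widths of 2602, 2750, 4301 and 5246 bp, and HOXB13, whose peak took in its neighbour on enzalutamide. Mean H3K4me3 coverage was 0.842, 1.22, 1.56 and 1.39, and widths are not divided by it. Whether depth accounts for the widths was not tested. For EZH2, both enzalutamide libraries stood above both DMSO libraries at HOXD13, HOXD4, HOXD3 and HOXB9, 4 of 9 members, beside 22.2% of genes. For HOXD13 this is the peak before the gene, and the heights at its inner start, given above, had no such order. The reverse was seen at 0, beside 6.09%.

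The PRKCI guide against the control guide in DMSO addresses the guide without the drug. EZH2 was gained at 0 members, beside 0.664% of genes, and lost at 1, HOXD1, beside 10.8%. EZH2 covered 26.0% of HOXD in sgC and 12.2% in sgPRKCI, while the whole genome stood at 0.332% and 0.185%. Its ratio to the genome was therefore 78.2 and 66.2. Of 9 members with EZH2 in both, HOXD9 and HOXD10 were at least 1.5-fold lower, beside 14.5% of genes, and 0 were higher, beside 1.73%. Among genes without H3K4me3 in any condition these were 2 of 6 members, beside 9.9% lower and 1.17% higher. The HOXD9 value of 0.36 (0.21 to 0.60) compares different peaks, as said above, and the interval of HOXD10, 0.60 (0.31 to 1.13), spans 1 and sets a peak with its summit in HOXD9 against one in HOXD10. With summits required in the gene or within 1 kb, HOXD9 was at 0.68 (0.36 to 1.24) and HOXD10 at 1.04 (0.54 to 1.99), and 1 of 10 members was 1.5-fold lower, HOXD13 at 0.62 (0.34 to 1.10), beside 13.8% of genes, with 0 higher, beside 2.32%. HOXD8 was at 1.04 (0.719 to 1.5) and HOXB8 at 1.04 (0.68 to 1.58). H3K27me3 was gained at HOXA9 and HOXB2, beside 1.57%, and lost at 0, beside 0.774%. Their peaks had a −log10 q of 1.96 and 1.33, where the lowest of the list was 1.00. H3K4me3 was gained at HOXA13 and HOXD1, beside 1.77%, and lost at 0, beside 0.255%. Mean H3K4me3 coverage was 1.22 in sgPRKCI and 0.842 in sgC. The HOXD1 height lay below the lowest member height in the sgC library, that of HOXB6, and the HOXA13 height lay above it. Whether depth accounts for these 2 gains was not tested. In H3K4me3 height HOXB6 and HOXB8 were at least 1.5-fold higher, 2 of 15 beside 2.3% of genes, at 2.08 (1.06 to 4.38) and, again between different peaks, 2.59 (1.47 to 4.82). With the summit required in the gene or within 1 kb, 0 of 18 were higher. None of the 15 were 1.5-fold lower, beside 0.881%.

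Enzalutamide against DMSO in sgPRKCI cells addresses the drug where PRKCI was targeted. EZH2 was gained at 13 members, beside 54.6% of all genes, and lost at 0, beside 0.324%. The 13 were HOXA4, HOXA7, HOXA11, HOXA13, HOXB4, HOXB13, HOXC4, HOXC5, HOXC6, HOXC8, HOXC9, HOXC12 and HOXC13, a share of the members below the share of all genes. In this library the 5 EZH2 peaks of HOXC and the 6 of HOXA lay on H3K4me3 without H3K27me3. Heights of EZH2 at HOXC13, HOXC4 to HOXC6, HOXC9, HOXC12 and HOXC8 were 120.2, 82.3, 62.7, 22.2 and 21.6, in the same order as H3K4me3 at the first 3. Divided by the H3K4me3 height of the same place, EZH2 had a median of 0.485 in HOXC and 0.541 over the 20 H3K4me3 peaks of the 4 clusters that it met, and 0.516 over all H3K4me3 peaks that it met. EZH2 met 5 of the 13 H3K4me3 peaks of HOXC and 62.5% of the 32 in the 4 clusters, where it met 72.5% of all H3K4me3 peaks. EZH2 peaks that overlap no H3K4me3 peak of any condition were found at 9 members in this library, against 7, 7 and 9 in the other 3. The share of all genes with such peaks was not counted, so these counts cannot be set apart from the library as a whole.

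**Figure D5:**
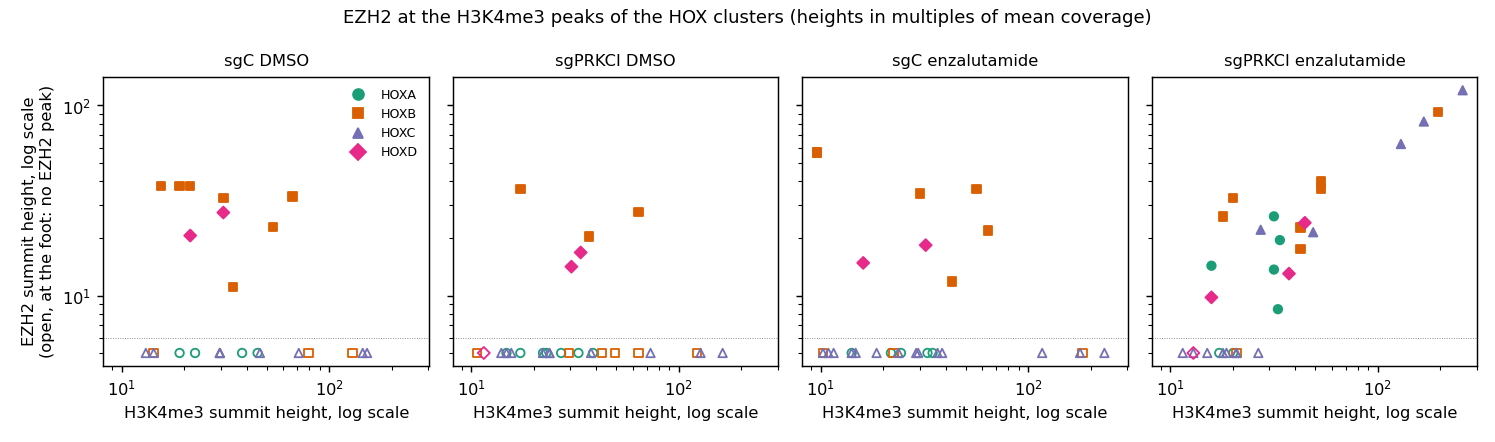
EZH2 against H3K4me3 summit height at each H3K4me3 peak of the 4 HOX clusters (both in multiples of mean coverage, log axes), 1 panel per condition, colours and shapes by cluster; open symbols at the foot have no EZH2 peak. In the first 3 panels the filled points are HOXB and HOXD alone, and in sgPRKCI enzalutamide HOXC and HOXA points are filled too, with HOXC13 at the top right.

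Among members that already had EZH2, ratios lay on both sides of 1. Of 9 members with EZH2 in both sgPRKCI libraries, 0 were at least 1.5-fold higher on enzalutamide, beside 43.3% of all genes with EZH2 in both, and 1, HOXD8, was lower, at 0.62 (0.42 to 0.92), beside 6.42%. Among genes without H3K4me3 in any condition the shares of all such genes were 6.93% higher and 10.8% lower. HOXD13, HOXD10 and the shared HOXD3 and HOXD4 peak had ratios of 1.298 (0.69 to 2.51), 1.47 (0.78 to 2.87) and 1.47 (0.73 to 3.12), above 1 with intervals that span it. HOXD coverage was 12.2% in DMSO and 25.3% on enzalutamide, and its ratio to the genome 66.2 and 28.7. With summits required in the gene or within 1 kb, 1 of 10 members was higher, HOXD3 at 1.70 (0.86 to 3.55), beside 44.9% of genes, and 1 lower, again HOXD8, beside 5.76%. H3K27me3 was gained at 0 members (0.474%) and lost at HOXB2 (1.33%), whose peak in DMSO was weak, as said above. H3K4me3 was gained at HOXC10 (0.828%) and lost at 0 (0.524%). H3K4me3 height was at least 1.5-fold higher at 4 of 18 members, beside 7.32%, at HOXA13 1.92 (1.12 to 3.38), HOXC13 1.58 (1.32 to 1.89), HOXC9 1.77 (1.36 to 2.31) and HOXB13 1.59 (1.298 to 1.96), and lower at 0, beside 0.721%. All genes had a median 0.31 higher on the log2 scale in that comparison, and centred on it HOXA13 alone stayed above 1.5-fold while HOXA4 and HOXA7 were 1.5-fold lower.

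On enzalutamide the guides can be compared directly. EZH2 was gained in sgPRKCI at 12 members, beside 53.2% of genes, all of them among the 13 named above, and lost at 0, beside 1.28%. In HOXD, EZH2 covered 45.9 kb in sgC and 26.2 kb in sgPRKCI. Of 11 members with EZH2 in both, 4 were at least 1.5-fold lower in sgPRKCI, beside 18.3% of genes, and 1 was higher, HOXB7, beside 34.7%. The 4 were HOXD8 at 0.42 (0.29 to 0.58), HOXD9 at 0.45 (0.28 to 0.69), HOXD10 at 0.47 (0.30 to 0.73) and HOXB8 at 0.65 (0.46 to 0.91). The HOXD10 ratio sets a peak with its summit in HOXD9 against one in HOXD10, and the HOXB8 ratio sets its own peak against that of HOXB7. With summits required in the gene or within 1 kb, HOXD10 was at 0.76 (0.47 to 1.23) and HOXB8 at 0.46 (0.31 to 0.68). By that rule 3 of 12 members were lower, HOXD9, HOXD8 and HOXB8, beside 14.5% of genes, and 2 were higher, HOXB3 and HOXB7, beside 40.8%. Where genes with H3K4me3 were left out, 3 of 7 members were lower, beside 29.6% of such genes, whose median was 0.29 lower on the log2 scale, so lower EZH2 was common among such genes in this library. H3K27me3 covered 92.7% of HOXD in sgC and 82.8% in sgPRKCI, and all 9 genes kept the mark. It was lost at HOXB2 (1.51%), whose peak in sgC was weak, as said above, and gained at 0 (0.524%). H3K4me3 was gained at HOXD1 (1.07%) and lost at 0 (0.524%). In H3K4me3 height HOXA13, at 2.34 (1.38 to 4.09), and HOXB6, at 1.89 (1.22 to 2.96), were at least 1.5-fold higher, 2 of 18 beside 2.79%, and 0 were lower, beside 0.433%. With summits required in the gene or within 1 kb, HOXB6 was at 1.41 (0.94 to 2.11). By that rule 1 of 19 was higher, HOXA13, beside 3.24%, and 0 were lower, beside 0.547%.

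MicroRNAs lie inside the clusters and repress HOX transcripts, so their mature sequences are shown with the seed, bases 2 to 8, in capitals. They are taken from RefSeq in GRCh38.p14. MIR196A1 in HOXB and MIR196A2 in HOXC give the same miR-196a-5p, and MIR196B in HOXA gives a relative with the same seed.
miR-196a-5p, chr17:48632532-48632553, minus strand, and chr12:53991762-53991783, plus strand: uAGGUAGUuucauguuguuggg
miR-196b-5p, chr7:27169528-27169549, minus strand: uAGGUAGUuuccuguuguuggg
miR-10a-5p, chr17:48579904-48579926, minus strand: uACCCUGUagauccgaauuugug
The hairpin of MIR10A, between HOXB4 and HOXB5, lay under H3K27me3 in all 4 conditions and under EZH2 in sgC enzalutamide. That of MIR10B, next to HOXD4, lay under H3K27me3 in all 4 and under EZH2 in both enzalutamide libraries. Within 1 kb, however, MIR10B had EZH2 in all 4. MIR196A1 lay under H3K27me3 in both sgC libraries and had it within 1 kb in all 4. MIR196A2 and MIR196B lay under none of the 3 marks in any condition. Of the 3 genes with the seed of miR-196, the one in HOXB was thus the one with a mark over its hairpin. MIR615, inside HOXC5, lay under H3K4me3 in the first 3 conditions. Of the 20 RNA genes listed inside the clusters, 3, 1, 4 and 7 had EZH2 within 1 kb, 6, 6, 7 and 7 had H3K27me3 and 5, 8, 6 and 8 had H3K4me3. HOTTIP, the long RNA beyond HOXA13, had H3K4me3 in the same 3 conditions as HOXA13.

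Genes that work with HOX proteins or are related to them were set beside the members. The 9 PBX, MEIS and PKNOX genes, whose homeodomain proteins bind DNA with HOX proteins, had H3K4me3 at 7 in each condition. The other 2, MEIS2 and MEIS3, had H3K27me3 in all 4, with EZH2 at MEIS2 in all 4 and at MEIS3 in both sgC libraries. EZH2 lay at 3, 2, 3 and 8 of the 9. The 15 other homeobox genes of the wider family, such as EVX2, GSX1 and MEOX2, had EZH2 at 9, 7, 9 and 11, H3K27me3 at 8, 9, 9 and 8 and H3K4me3 at 6 in each. EVX2, the neighbour of HOXD13, had EZH2 and H3K27me3 in all 4 conditions. Of the 12 genes that flank the clusters, H3K27me3 lay at 1, 2, 3 and 2 and H3K4me3 at 8, 9, 9 and 9, and MTX2 and LNPK, on either side of HOXD, had H3K4me3 in all 4 and no H3K27me3. The H3K27me3 of HOXD thus reached EVX2 and was not called at the next genes. EZH2 lay at 4, 3, 3 and 10 of the 12, at LNPK in all 4 conditions and at MTX2 in all but sgPRKCI DMSO.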

How the data were processed

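CUT&RUN peak lists of 12 libraries were used, 8 of narrow peaks (EZH2, H3K4me3) and 4 of broad peaks (H3K27me3); the 4 IgG libraries were not used here. Per the submitters' processing notes, reads went through FastQC, Trimmomatic, Bowtie2, SAMtools and MACS2 with build GRCh38 (versions and roles not given in the sources used here). Deposited values are a score (10 times −log10 q), a fold enrichment ratio over local background and −log10 p and q per peak, and each is the authors' value for that peak. Samples were grouped by antibody, guide and treatment from the labels. From each narrow peak's −log10 p and fold enrichment, the summit's fragments and the library's mean coverage were recovered: 97.0% to 100% of peaks gave whole fragments within 0.002 in −log10 p, after a pileup scale was fitted for the EZH2 library of sgPRKCI enzalutamide. H3K27me3 depth is unknown. A summit height is fragments divided by mean coverage, and the height of a gene is that of its highest peak within 1 kb of either end, which can be a neighbour's. Shares and ratios have exact 95% intervals for counting error only, and fragments without molecular identifiers are not independent molecules. Genes are RefSeq's in GRCh38.p14. The members, lists and tests were chosen with earlier results of these data known. Values are given for HOXB13 and, per cluster, for members with the highest EZH2 or H3K4me3 −log10 q and members gained or lost, and others are named as examples. Alternatives were the gene window, overlap, a stricter q, equal peak numbers, joined peaks, flanks, and EZH2 peaks outside H3K4me3; fold limit, centring, summits in the gene and coverage outside H3K4me3 were added after seeing the data. The recovery and the gain and loss calls were tested on simulated data. Python 3.11.15, pandas 2.3.3, numpy 2.4.6, scipy 1.17.1 and matplotlib 3.10.9 were used.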

Additional observations from a re-analysis of the deposited data

Results flagged for a closer look

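In 13 of 30 comparisons over 15 quantities, a contrast had one sign in one background and the opposite sign in the other. With 1 library per condition these differences were not tested. The number of HOX genes with EZH2, sgPRKCI minus sgC, was -2 in DMSO and 12 on enzalutamide, and the share of all genes moved the same way, from 18.3% in sgC to 7.67% in sgPRKCI in DMSO and from 10.3% to 62.6% on enzalutamide. For H3K27me3, enzalutamide minus DMSO was 1 gene in sgC and -2 in sgPRKCI, and sgPRKCI minus sgC was 2 genes in DMSO and -1 on enzalutamide.

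The other values are percentage points of cluster length. H3K27me3 over HOXD was 11.2 higher on enzalutamide than in DMSO in sgC and stood at -1.57 in sgPRKCI, and sgPRKCI minus sgC was 2.94 in DMSO and -9.83 on enzalutamide. The whole genome's H3K27me3 coverage also had opposite signs, with 6.21% in sgC and 7.52% in sgPRKCI in DMSO and 9.38% and 8.08% on enzalutamide. Relative to the genome, HOXD stood at 13.1 and 11.2 in DMSO and at 9.88 and 10.3 on enzalutamide, the other way round. Over HOXB the drug's difference was 6.15 in sgC and -4.06 in sgPRKCI, and the guide's was 3.68 in DMSO and -6.53 on enzalutamide. Over HOXA the guide's difference in H3K27me3 was 7.52 in DMSO and -1.71 on enzalutamide, and over HOXC the drug's was 1.33 in sgC and -0.47 in sgPRKCI. EZH2 over HOXB differed between guides by -1.93 in DMSO and 0.22 on enzalutamide. For H3K4me3, the drug's difference over HOXA was 1.09 in sgC and -0.35 in sgPRKCI, and the guide's was 1.33 in DMSO and -0.15 on enzalutamide over HOXB and 0.84 and -0.77 over HOXC.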

How the results depend on the processing

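With 1 library per antibody and condition no replicate could be left out. No paired analysis was possible because each group has 1 library and no result comes from a test. Of 88 recounts of HOX genes with a peak, 80 stayed within 1.5 times the value reported. So did 45 of 72 counts of gains and losses and 28 of 48 counts of heights past a fold. Of 52 values of coverage of the 4 clusters, 47 stayed inside the exact 95% interval of the value reported, counted in kb. The cause of each value outside was not tested. Recounts of peaks, gains and losses were made for the members only, so no share of all genes stands beside them.

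With EZH2 counted at the gene end itself (0 bp), 7 HOX genes had a peak in sgC DMSO, 4 in sgPRKCI DMSO and 11 in sgPRKCI enzalutamide, and H3K4me3 was at 13 in sgPRKCI enzalutamide. Within 5 kb, H3K4me3 was at 28 in sgPRKCI DMSO. EZH2 peaks outside H3K4me3 were at 7 in sgC DMSO and 9 in sgPRKCI enzalutamide, and covered 4.80%, 2.21%, 8.58% and 5.53% of the 4 clusters in the order of conditions above, a coverage setting added after seeing the data. With as many of the strongest peaks in each EZH2 list as in the shortest list, sgPRKCI enzalutamide had EZH2 at 5 HOX genes and over 1.21% of the 4 clusters.

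With equal numbers, EZH2 gains were 5 and losses 9 for enzalutamide in sgPRKCI, and gains were 5 and losses 11 for sgPRKCI on enzalutamide. H3K27me3 then had 1 loss for sgPRKCI in DMSO, 0 for enzalutamide in sgPRKCI and 0 for sgPRKCI on enzalutamide. With the other library free within 1 kb only, EZH2 had 2 losses for sgPRKCI in DMSO, 2 gains for enzalutamide in sgC and 1 loss for sgPRKCI on enzalutamide. H3K27me3 had 1 loss for sgPRKCI in DMSO, 2 gains for enzalutamide in sgC, 2 losses for enzalutamide in sgPRKCI, and 1 gain and 2 losses for sgPRKCI on enzalutamide. H3K4me3 had 2 gains for enzalutamide in sgPRKCI, and 2 gains and 1 loss for sgPRKCI on enzalutamide. With the stricter q, EZH2 losses were 0 for sgPRKCI in DMSO, 0 for enzalutamide in sgC and 1 for sgPRKCI on enzalutamide. H3K27me3 had 1 gain for sgPRKCI in DMSO, 2 gains and 0 losses for enzalutamide in sgC and 1 gain for enzalutamide in sgPRKCI. H3K4me3 had 3 gains for enzalutamide in sgPRKCI and 2 for sgPRKCI on enzalutamide.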
